A study of Homo sapiens with 48 samples.

Results

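MYC and its dimerization partners were examined in SW480, a human APC-mutant colorectal cancer line, by Ribo-seq and total cytoplasmic RNA sequencing. The genes are MYC, MAX, MXD3, MXD4, MXI1, MNT, MLX and MGA, taken by their symbols, and all 8 are in both tables (11145 genes with ribosome-protected fragments, RPFs, and 11947 with total RNA, 10836 of them in both). The cells carried a doxycycline-inducible shRNA, either the non-targeting shCTRL, shEIF2B1 against eIF2Bα or shEIF2B4 against eIF2Bδ, and the shRNA was induced for 5 days with DOX at 1 µg/ml (+DOX) or left uninduced with DMSO (-DOX). Each of these 6 conditions had 4 replicates from separate weeks, and each of the 24 lysates gave an RPF and a total RNA library. Each knockdown rests on a single shRNA, and all lines, shCTRL included, are SW480 derivatives with the same inducible system.

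MYC binds DNA as a heterodimer with MAX at E-boxes, of which CACGTG is the canonical form, and activates genes of growth, nucleotide metabolism and ribosome biogenesis. MXD and MXI1 proteins and MNT compete for MAX and recruit SIN3 and histone deacetylases to the same sites, and MGA brings MAX into a polycomb complex. MLX is the partner of the glucose-sensing factors MondoA and ChREBP, and also dimerizes with MXD4 and MNT. In colorectal cancer with mutated APC, MYC is a direct target of β-catenin.

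Promoters of the network were searched for the E-box because the proteins bind it. The RefSeq promoter table (GRCh38.p14, 250 bases before to 50 after each gene start) had 12 windows for 7 of the 8 genes, with none for MYC. CACGTG reads the same on both strands and was found once in the windows of 3 genes, MXD4, MNT and MLX, and in none of those of MAX, MXD3, MXI1 and MGA. It is in 7.26% of all 35116 windows of that length and in 9.56% of the 13179 windows of genes with RPFs. Positions count from the RefSeq gene start, which for MXD4 differs from the GENCODE v29 gene boundary given below. The sites start at positions -238, -193 and -50 relative to that start, within chr4:2262332-2262357 (minus strand), chr17:2401238-2401263 (minus strand) and chr17:42567040-42567065 (plus strand). They are shown 5′ to 3′ with the E-box in capitals.
MXD4: gccgggccacCACGTGctgttgctaa
MNT: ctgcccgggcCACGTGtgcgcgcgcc
MLX: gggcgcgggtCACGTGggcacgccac
A match is a sequence only, since binding was not measured here.

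The files hold DESeq2 regularized log2 values, so a difference of 1 is a doubling and no read counts or depths are known. Log2 TE, the translation efficiency, subtracts a lysate's log2 total RNA from its log2 RPFs. The response to a knockdown is the change on induction in that line less the change on induction in shCTRL, fitted by limma over all genes with the replicate as a block and called at an adjusted p under 0.1. In the knockdown check, EIF2B1 total RNA fell by 0.67 after shEIF2B1 (adjusted p = 0.0263) and EIF2B4 total RNA by 0.49 after shEIF2B4 (adjusted p = 0.0634), while EIF2B4 RPFs gave -0.48 (adjusted p = 0.236). DDIT3 RPFs, the stress gene CHOP, rose by 1.49 and 1.73. Without DOX, EIF2B1 was already lower in shEIF2B1 than in shCTRL, at -0.45 in RPFs (adjusted p = 0.00019) and -0.29 in total RNA (adjusted p = 0.0289). EIF2B4 in uninduced shEIF2B4 was at -0.42 in RPFs (adjusted p = 0.0824) and -0.25 in total RNA (adjusted p = 0.129). The colon epithelial markers EPCAM, KRT8, KRT18, KRT19, CDX2 and CDH1 are in both tables. The 6 others of that list, KRT20, CDX1, VIL1, CDH17, CEACAM5 and LGALS4, are in neither. Of the listed markers of other cell types, CD68 and ACTA2 are in both and the rest in neither. Their median RPF values were 6.09 and 6.62, against 4.81 (CDH1) to 14.54 (KRT18) for the epithelial markers. CDX2, which specifies intestinal cells, had RPF values between 6.22 and 7.91. In bulk lysates, a change in a share of the cells cannot be told apart from a change in each cell.

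Of the 8 genes, MXD4 and MAX rose in RPFs after shEIF2B1, MXD4 alone rose after shEIF2B4, and MYC passed the test in neither. The background for these counts is 27.3% of genes called after shEIF2B1 and 2.75% after shEIF2B4. The median RPF response of the 8 genes was 0.093 and 0.092, against -0.011 and -0.017 over all genes. In total RNA, MXD4 rose after shEIF2B1 (1 of 8, background 3.47%) and none of the 8 was called after shEIF2B4 (background 5.40%). No member was called in log2 TE after shEIF2B1 (background 7.10%) or shEIF2B4 (background 0.0923%). The responses to the 2 knockdowns were compared directly, and no member was called in RPFs (background 0.00897%), total RNA (12 of 11947 genes called, background 0.10%) or log2 TE (background 0%, with 665 genes at an unadjusted p under 0.05 in limma). The plot of responses with their intervals shows each gene in the 3 measures.

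MYC was the most abundant of the 8 in log2 RPFs and in log2 total RNA as deposited, values that are not scaled for length. Its RPFs in shCTRL -DOX were 10.45, 10.39, 10.75 and 10.68 in weeks 1 to 4, and in shCTRL +DOX 10.47, 10.44, 10.44 and 10.29. In shEIF2B1 they were 10.75, 10.91, 10.64 and 10.74 at -DOX and 10.74, 10.64, 10.76 and 10.59 at +DOX. In shEIF2B4 they were 10.38, 10.53, 10.26 and 10.43 at -DOX and 10.60, 10.38, 10.12 and 10.10 at +DOX. Induced and uninduced values overlapped in every line, and the shEIF2B1 values, 10.59 to 10.91 with or without DOX, lay above most of those of the other lines. The RPF response was 0.085 (SE 0.13, 95% interval -0.19 to 0.36, adjusted p = 0.689) after shEIF2B1 and 0.057 (SE 0.17, interval -0.30 to 0.42, adjusted p = 0.902) after shEIF2B4. It was above 0 in 2 of 4 weeks and in 3 of 4.

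MYC total RNA ranged from 10.71 to 11.26 over the 24 libraries. It was 11.13, 11.19, 10.94 and 11.04 in shEIF2B4 -DOX and 10.90, 10.90, 10.71 and 10.74 in shEIF2B4 +DOX, so that every induced library was below every uninduced one. The shCTRL values, 11.00, 10.87, 11.23 and 11.06 at -DOX against 10.98, 11.11, 11.01 and 10.82 at +DOX, overlapped. Relative to shCTRL the response was -0.21 (SE 0.12, adjusted p = 0.395), below 0 in 4 of 4 weeks, and after shEIF2B1 it was -0.047 (SE 0.11, adjusted p = 0.896). Within shEIF2B4 alone, with no shCTRL correction, MYC total RNA fell by 0.26 (adjusted p = 0.0292). MYC log2 TE gave 0.13 (SE 0.14, adjusted p = 0.623) and 0.26 (SE 0.15, adjusted p = 0.347), above 0 in 4 of 4 weeks in both. Both subtract the same shCTRL change, -0.10 (SE 0.095, adjusted p = 0.645). The direct difference between the knockdowns in MYC RPFs was 0.028, with an interval from -0.29 to 0.34.

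**Figure D1:**
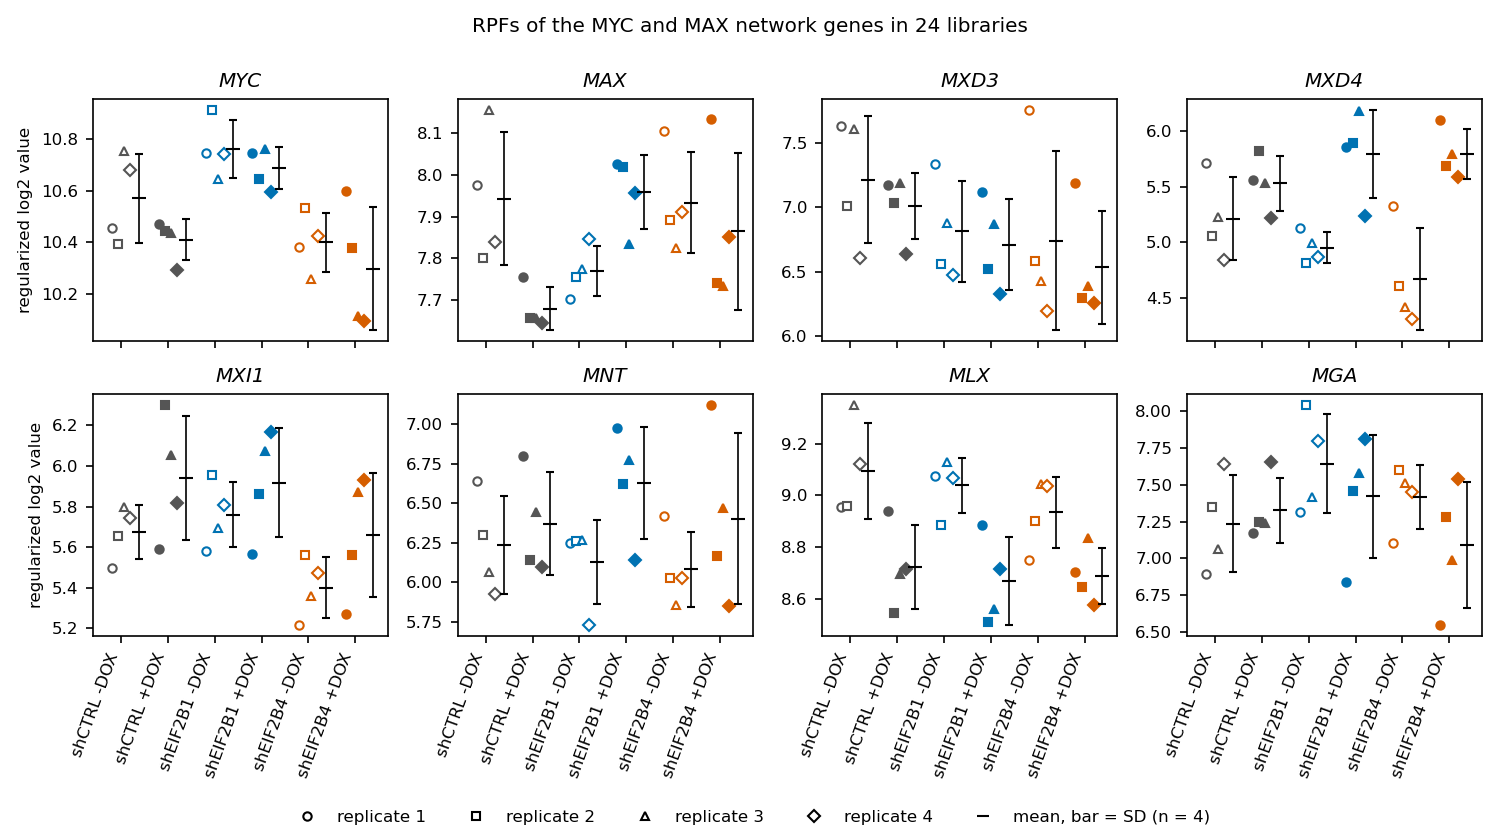
Regularized log2 RPF values (y axis, scaled per gene) of the 8 network genes in each of the 24 libraries, by line and DOX (open symbols -DOX, filled +DOX), with a symbol per replicate and black bars for mean and SD (n = 4). MXD4 lies higher in all 4 induced shEIF2B1 and shEIF2B4 libraries than in the uninduced ones of that line, and MYC overlaps within each line.

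MAX is the common partner with which MYC, MXD proteins, MNT and MGA bind E-boxes. The gene lies at chr14:65006174-65102695 (minus strand, GRCh38, GENCODE v29). MAX RPFs were 7.98, 7.80, 8.15 and 7.84 in shCTRL -DOX and 7.76, 7.66, 7.66 and 7.65 in shCTRL +DOX, so that all induced control libraries were below the uninduced ones. In shEIF2B1 they were 7.70, 7.76, 7.77 and 7.85 at -DOX and 8.02, 8.02, 7.83 and 7.96 at +DOX, with 1 induced library inside the uninduced range. The response to shEIF2B1 was 0.45 (SE 0.13, 1.37-fold, adjusted p = 0.0224) and was above 0 in 4 of 4 weeks. This value joins a change of 0.19 within shEIF2B1, which did not pass on its own (adjusted p = 0.146), to a change of -0.26 in shCTRL (adjusted p = 0.129). Without replicate 1 the adjusted p was 0.106, and with no replicate block 0.551.

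After shEIF2B4 the MAX RPF response was 0.20 (SE 0.15, adjusted p = 0.533). MAX RPFs in that line were 8.11, 7.89, 7.82 and 7.91 at -DOX and 8.13, 7.74, 7.73 and 7.85 at +DOX, which overlap. MAX total RNA showed 0.073 (SE 0.18, adjusted p = 0.896) and -0.20 (SE 0.13, adjusted p = 0.470), with values between 9.11 and 9.88 over all libraries. MAX log2 TE was thus 0.38 (SE 0.16, adjusted p = 0.188) and 0.39 (SE 0.18, adjusted p = 0.274), above 0 in 4 of 4 weeks after both knockdowns but not called. Both subtract the same shCTRL change, -0.29 (SE 0.11, adjusted p = 0.220), so they are not independent. Within the lines, mean log2 TE went from -1.59 to -1.49 in shEIF2B1 and from -1.61 to -1.51 in shEIF2B4.

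MXD4 is a member of the MXD repressors, which are linked to exit from the cell cycle and differentiation. The gene lies at chr4:2247432-2262294 (minus strand, GRCh38, GENCODE v29), and among the 6 genes with a matched transcript its coding sequence (CDS) was the richest in G or C at the third codon position, at 84.2% (above 94.1% of RPF genes). MXD4 RPFs were 5.72, 5.06, 5.23 and 4.84 in shCTRL -DOX and 5.56, 5.82, 5.53 and 5.22 in shCTRL +DOX. In shEIF2B1 they were 5.13, 4.82, 5.00 and 4.87 at -DOX and 5.86, 5.89, 6.18 and 5.24 at +DOX. In shEIF2B4 they were 5.33, 4.61, 4.42 and 4.31 at -DOX and 6.10, 5.68, 5.79 and 5.59 at +DOX. Every induced library exceeded every uninduced one in both knockdown lines, while the control groups overlapped. MXD4 RPFs also rose on induction in shCTRL, by 0.32 (SE 0.14, adjusted p = 0.185), which was not called. The separation within the knockdown lines is not corrected for that change. No share of all genes that separate in this way is given. MXD4 is also among the low genes that an alternative fit leaves out of both tables.

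The RPF response of MXD4 was 0.52 after shEIF2B1 (SE 0.20, 1.43-fold, adjusted p = 0.0755) and 0.80 after shEIF2B4 (SE 0.20, 1.75-fold, adjusted p = 0.0545). It was above 0 in 3 of 4 and in 4 of 4 weeks. The direct difference between the knockdowns was -0.29 (interval -0.72 to 0.15, adjusted p = 0.763). MXD4 RPFs were lower in the uninduced knockdown lines than in uninduced shCTRL, and these libraries also enter the responses. Between the induced lines and induced shCTRL the mean RPF difference was 0.26 ± 0.28 (SD, n = 4) for shEIF2B1 and 0.26 ± 0.29 (SD, n = 4) for shEIF2B4, a difference that was not tested. The shEIF2B1 call was lost without replicate 1 (adjusted p = 0.256) or 3 (adjusted p = 0.276), the shEIF2B4 call without replicate 3 (adjusted p = 0.361) or 4 (adjusted p = 0.437), and with no replicate block the adjusted p were 0.621 and 0.952.

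MXD4 total RNA was also higher in the induced knockdown libraries. It was 5.58, 5.58, 5.36 and 5.38 in shCTRL -DOX and 5.56, 5.99, 5.81 and 5.71 at +DOX, which overlap. It was 5.49, 5.42, 5.50 and 5.20 in shEIF2B1 -DOX and 5.98, 6.39, 6.38 and 5.97 in shEIF2B1 +DOX. In shEIF2B4 it was 5.53, 5.18, 5.45 and 5.20 at -DOX and 5.93, 6.04, 5.97 and 5.94 at +DOX. Again induced and uninduced values did not overlap in either knockdown line. That separation is likewise not corrected for the change in shCTRL, 0.29 (adjusted p = 0.119). The response was 0.49 after shEIF2B1 (SE 0.13, 1.40-fold, adjusted p = 0.070), between 0.43 and 0.56 in the 4 weeks, and 0.34 after shEIF2B4 (SE 0.13, adjusted p = 0.190), between 0.07 and 0.44. Leaving out any 1 replicate gave an adjusted p between 0.123 and 0.278 for shEIF2B1, and without the replicate block it was 0.183. MXD4 log2 TE gave 0.030 (SE 0.17, adjusted p = 0.935) and 0.47 (SE 0.17, adjusted p = 0.213).

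**Figure D2:**
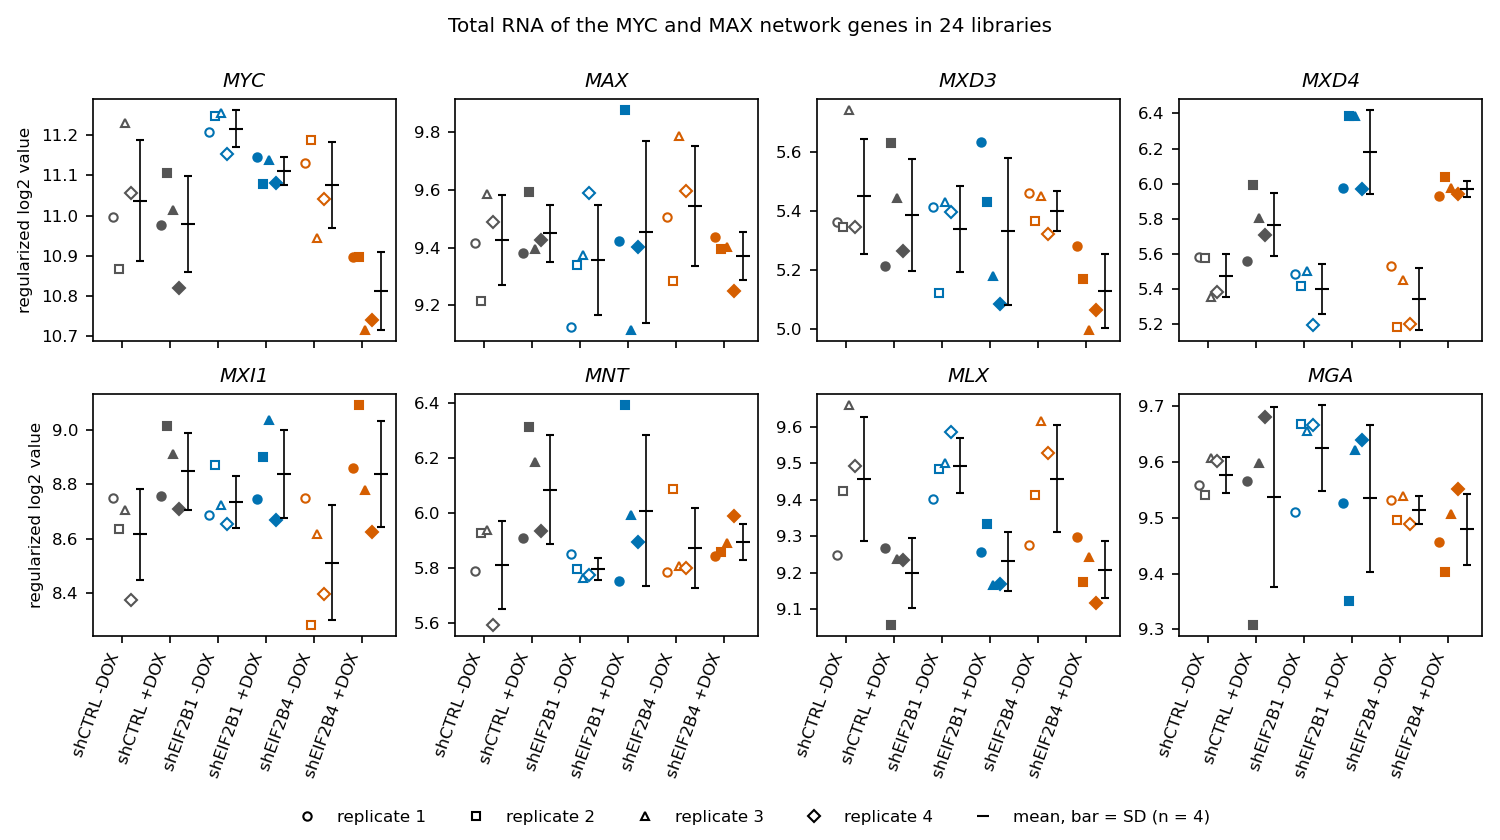
Regularized log2 total RNA values (y axis, scaled per gene) of the 8 network genes in the 24 libraries, by line and DOX (open symbols -DOX, filled +DOX), with a symbol per replicate and black bars for mean and SD (n = 4). MXD4 lies between 5.93 and 6.39 in the 8 induced knockdown libraries and between 5.18 and 5.53 in the 8 uninduced ones, and the group means of MLX are lower at +DOX in all 3 lines.

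The other MAX-binding repressors passed no test of a knockdown response. MXD3 RPFs ranged from 6.19 to 7.75 and gave 0.10 (SE 0.15, adjusted p = 0.676) after shEIF2B1 and 0.00 (SE 0.24, adjusted p = 1.00) after shEIF2B4. Its total RNA ranged from 4.99 to 5.74, with responses of 0.052 and -0.21 (adjusted p = 0.928 and 0.458). MXD3 had the highest log2 TE of the network, between 0.87 and 2.29, on tables that were normalised separately. MXI1 RPFs ranged from 5.22 to 6.30 with responses of -0.11 and -0.0077. Its total RNA ranged from 8.28 to 9.09 with responses of -0.13 and 0.095. MXI1 had the lowest log2 TE of the network, between -3.586 and -2.503 over the 24 lysates. RPFs were counted on the CDS and total RNA on the transcript, neither scaled for length. Ranks between genes in log2 TE therefore also depend on those lengths.

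MNT, the broadly expressed antagonist that is present in cycling cells, had RPFs of 6.25, 6.26, 6.27 and 5.73 in shEIF2B1 -DOX and 6.97, 6.62, 6.78 and 6.14 in shEIF2B1 +DOX. In shCTRL they were 6.64, 6.30, 6.07 and 5.93 at -DOX and 6.80, 6.14, 6.45 and 6.10 at +DOX. Groups overlapped in shCTRL, and in shEIF2B1 through the induced library of week 4. The response was 0.36 (SE 0.16, adjusted p = 0.117), above 0 in 4 of 4 weeks, and with each library centred on its median it was 0.42 and passed (adjusted p = 0.0701). After shEIF2B4 it was 0.18 (SE 0.19, adjusted p = 0.672). MNT total RNA gave -0.062 (adjusted p = 0.878) and -0.25 (adjusted p = 0.289), and log2 TE 0.43 after both knockdowns (SE 0.21 and 0.20, adjusted p = 0.245 and 0.286).

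MLX was not called in any knockdown response. MLX RPFs were 8.95, 8.96, 9.35 and 9.12 in shCTRL -DOX and 8.94, 8.55, 8.69 and 8.72 in shCTRL +DOX, lower at +DOX within each week and without overlap between the groups. In shEIF2B1 they were 9.08, 8.89, 9.13 and 9.07 at -DOX and 8.89, 8.51, 8.56 and 8.72 at +DOX. In shEIF2B4 they were 8.75, 8.90, 9.05 and 9.04 at -DOX and 8.70, 8.65, 8.83 and 8.58 at +DOX. Group means were thus lower at +DOX in all 3 lines, and the groups of shEIF2B4 overlapped. The RPF change in shCTRL was -0.37 (SE 0.11, adjusted p = 0.0729), the only member called there in RPFs (1 of 8, background 9.85%). That call was lost without replicate 2, 3 or 4 (adjusted p = 0.181, 0.478 and 0.302) and with no replicate block (adjusted p = 0.636). Relative to shCTRL the MLX responses in RPFs were 0.0010 (interval -0.28 to 0.29) and 0.13 (interval -0.19 to 0.45). In total RNA they were -0.0040 (interval -0.26 to 0.25) and 0.0073 (interval -0.23 to 0.24).

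MGA, a very large protein with both a T-box and a basic helix-loop-helix domain, had the longest CDS of the matched genes (9195 bases) and the least G or C at the third codon position, at 37.4% (above 12.6% of RPF genes). MGA RPFs were 7.11, 7.60, 7.51 and 7.45 in shEIF2B4 -DOX and 6.55, 7.28, 6.99 and 7.54 in shEIF2B4 +DOX, which overlap. The shCTRL values were 6.90, 7.35, 7.06 and 7.64 at -DOX and 7.17, 7.25, 7.24 and 7.66 at +DOX. The response was -0.42 (SE 0.17, adjusted p = 0.242), below 0 in 3 of 4 weeks, and after shEIF2B1 it was -0.31 (SE 0.17, adjusted p = 0.210). MGA total RNA varied little, between 9.31 and 9.68 over the 24 libraries, with responses of -0.051 and 0.0056.

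DOX itself was checked in shCTRL, where only the non-targeting shRNA is induced. Beside MLX in RPFs, MNT was called in total RNA (1 of 8, background 4.44%), and none in log2 TE (background 0.388%). MNT total RNA was 5.79, 5.93, 5.94 and 5.59 at -DOX and 5.91, 6.31, 6.18 and 5.93 at +DOX, groups that overlap. It rose by 0.27 (SE 0.078, adjusted p = 0.0988), a call that was lost without replicate 2, 3 or 4 (adjusted p = 0.219, 0.411 and 0.393), with no replicate block (adjusted p = 0.318) and with all 24 libraries in one fit (adjusted p = 0.105). The shCTRL estimates in total RNA for MXD4, 0.29 (adjusted p = 0.119), MLX, -0.26 (adjusted p = 0.122), and MXI1, 0.23 (adjusted p = 0.136), did not pass. Without replicate 1, 4 members were called in each of the RPF and total RNA comparisons. The share of all genes called in those refits was not recorded, and the shares above belong to the full fit.

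The uninduced lines were compared because their libraries set the base of each response. Uninduced shEIF2B1 differed from uninduced shCTRL in 4 of 8 members in RPFs, where 54.1% of all genes were called, in none in total RNA (background 1.40%) and in 2 in log2 TE (background 42.6%). MGA RPFs were higher by 0.41 (SE 0.094, adjusted p = 0.00201), at 7.32, 8.04, 7.42 and 7.79 against the 6.90, 7.35, 7.06 and 7.64 of shCTRL, higher within each week. MXD3 RPFs were lower by 0.40 (SE 0.10, adjusted p = 0.00355), at 7.34, 6.56, 6.88 and 6.48 against 7.63, 7.01, 7.60 and 6.61, lower within each week. Both groups overlap when weeks are ignored. MGA and MXD3 were also the 2 members called in log2 TE, at 0.36 (SE 0.11, adjusted p = 0.0266) and -0.29 (SE 0.086, adjusted p = 0.0215).

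MYC RPFs were higher in uninduced shEIF2B1 by 0.19 (SE 0.088, adjusted p = 0.0835). Its total RNA difference was 0.18 (SE 0.058, adjusted p = 0.204). The MYC call was lost without replicate 1 (adjusted p = 0.242) or 2 (adjusted p = 0.478) and with median centring (adjusted p = 0.228). MXD4 RPFs were lower by 0.26 (SE 0.11, adjusted p = 0.0733), a call lost without replicate 1, 2 or 3 (adjusted p = 0.338, 0.133 and 0.124). With no replicate block none of these 4 RPF differences passed (adjusted p between 0.346 and 0.389). Uninduced shEIF2B4 was called in MXD4 RPFs, lower by 0.54 (SE 0.13, adjusted p = 0.0556; 1 of 8, background 13.9%), and in no member in total RNA (background 2.32%) or log2 TE (background 0.554%). All shEIF2B4 columns lay lower, with library means of 6.99 to 7.02 in RPFs against 7.12 to 7.14 in shCTRL. After median centring the MXD4 difference was -0.45 (adjusted p = 0.121), and without replicate 2, 3 or 4 it did not pass (adjusted p = 0.212, 0.123 and 0.271).

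Levels were compared between genes per kilobase of CDS for the 6 genes with a matched transcript, in shCTRL -DOX. Log2 RPFs per kilobase were 9.55 ± 0.19 for MLX, 9.09 ± 0.16 for MAX, 6.995 ± 0.495 for MXD3, 5.88 ± 0.37 for MXD4, 5.43 ± 0.31 for MNT and 4.04 ± 0.33 for MGA (SD, n = 4). The ranges of the 4 libraries did not overlap between MLX and MAX, MAX and MXD3, or MNT and MGA, while those of MXD4 and MNT overlapped, and the lowest MXD3 and highest MXD4 libraries met at 6.39. MLX and MAX stood above 86.8% and 82.7% of genes on this scale and MGA above 12.8%. The matched MGA transcript holds 3 upstream ATG in its leader and that of MXD4 holds 1, and those of MAX, MXD3, MNT and MLX hold none. An upstream ATG is present in 47.4% of RPF genes.

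Partners and regulators of the network were read as lists. Their counts after shEIF2B1 stand against the 15.3% of all genes that fell and 12.0% that rose in RPFs, and those of uninduced shEIF2B1 against uninduced shCTRL, which share the uninduced libraries with the response, against the 54.1% of genes called there (3230 higher and 2800 lower of 11145). Among 4 measured other network proteins, MLXIPL (ChREBP, the glucose-responsive partner of MLX) rose in RPFs by 0.96 (SE 0.24, adjusted p = 0.0115) after shEIF2B1 and by 1.17 (SE 0.29, adjusted p = 0.0545) after shEIF2B4. MYCL, a MYC paralog, rose by 0.44 in RPFs after shEIF2B1 (adjusted p = 0.0838) and by 0.35 in total RNA after shEIF2B4 (adjusted p = 0.0956). With any 1 replicate left out, 1 of the 4 was called in RPFs after shEIF2B1, and without replicate 3 or 4 none after shEIF2B4. Of 12 SIN3 and histone deacetylase corepressor genes, which act with MXD proteins and MNT, 7 fell in RPFs after shEIF2B1 and none rose (median -0.34). They were led by SAP30, a SIN3 subunit, with -0.65 (SE 0.14, adjusted p = 0.00596), ARID4B with -0.53 (adjusted p = 0.0501) and the deacetylase HDAC2 with -0.43 (adjusted p = 0.0746). In uninduced shEIF2B1 against uninduced shCTRL, 9 of the 12 were higher and none lower (median 0.29), with SAP30 at 0.41, ARID4B at 0.56 and HDAC2 at 0.56. Leaving out 1 replicate gave 3 or 4 calls among the 12, fewest without replicate 1 or 3. None of the 12 was called after shEIF2B4 (median -0.16), where 2.75% of all genes were called. Of 8 genes of the polycomb complex with MGA, 1 fell after shEIF2B1, CBX3 with -0.99 (SE 0.14, adjusted p = 2e-04), a smaller share than over all genes. CBX3 RPFs were higher by 0.76 (adjusted p = 4.2e-06) in uninduced shEIF2B1 than in uninduced shCTRL.

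Of 14 MYC cofactors 4 fell in RPFs after shEIF2B1 and none rose (median -0.048), led by PAF1 with -0.54 (SE 0.14, adjusted p = 0.0147), ACTL6A with -0.49 (adjusted p = 0.0214) and BPTF with -0.48 (adjusted p = 0.0245), and without replicate 1 none was called. The called share of the cofactors is near the 27.3% of all genes, and 5 of the 14 were higher and 2 lower in uninduced shEIF2B1 (median 0.11). Of 13 genes for MYC protein turnover 6 fell and 1 rose (median -0.31). AURKA, the mitotic kinase that stabilizes MYC family proteins, fell by 0.95 in RPFs (SE 0.15, adjusted p = 0.00053) and by 0.51 in total RNA (adjusted p = 0.0308). USP7 fell by 0.63 (adjusted p = 0.0173) and CIP2A, which protects MYC from dephosphorylation, by 0.52 (adjusted p = 0.0737). In uninduced shEIF2B1, 6 of the 13 were higher than in uninduced shCTRL and 2 lower (median 0.20), with AURKA higher by 0.32, USP7 by 0.44 and CIP2A by 0.50. Without replicate 3 or 4 the count was 3, and without replicate 1 it was 4. None of either list was called in RPFs after shEIF2B4, where 2.75% of all genes were called.

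Of 30 measured genes that MYC is known to activate, 14 fell and 1 rose in RPFs after shEIF2B1 (median -0.32, all genes -0.011). Over all genes 15.3% fell and 12.0% rose. None of the 30 was called after shEIF2B4 (median -0.089), where 2.75% of all genes were called. The direct difference between the knockdowns was called in 1 of 11145 genes in RPFs. After shEIF2B1, the nucleolar protein NCL fell by 1.37 (SE 0.24, adjusted p = 0.00123), the helicase DDX18 by 0.80 (adjusted p = 0.0154) and the nucleolar GTPase GNL3 by 0.71 (adjusted p = 0.0135). CCND2, a D-type cyclin, was the 1 that rose, and after shEIF2B4 it rose in total RNA by 0.43 (adjusted p = 0.0532). In total RNA, NCL was the only gene of 31 called after shEIF2B1 (3.47% of all genes called), with -0.55 (adjusted p = 0.0451). Of the 31 estimates, 28 were below 0, where the median over all genes was -0.0038. The share of all genes below 0 was not recorded, and genes of a list in the same libraries are not independent. Without replicate 1, 8 of the 30 were called in RPFs, and without replicate 4 it was 9. With no replicate block, no gene of any of these lists was called in RPFs after shEIF2B1. In uninduced shEIF2B1 against uninduced shCTRL, 16 of the 30 were higher and 2 lower in RPFs (median 0.21, 54.1% of all genes called), with NCL higher by 0.76, DDX18 by 0.51 and GNL3 by 0.50. In shCTRL the RPF estimates of 27 of the 30 were below 0 on induction and 3 were called (background 9.85%). The median over all genes there was 0.013.

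Of 5 genes that MYC is known to repress, 3 rose in RPFs after shEIF2B1, where 12.0% of all genes rose. After shEIF2B4, where 2.75% of all genes were called, 2 of the 5 rose. None fell after either knockdown. In RPFs these genes were lower in the uninduced knockdown lines than in uninduced shCTRL. Called lower were 4 of 5 in shEIF2B1 (median -0.42, 54.1% of all genes called). In shEIF2B4 it was 3 of 5 (median -0.51, 13.9% called), and none was called higher in either line. The cell cycle inhibitor CDKN1A (p21) rose by 0.54 (SE 0.12, adjusted p = 0.00491) and 0.59 (SE 0.14, adjusted p = 0.0526), and CDKN2B (p15) by 0.65 (adjusted p = 0.0189) after shEIF2B1 and, in total RNA, by 0.89 (adjusted p = 0.00012) after shEIF2B4. NDRG1, a stress-induced gene, rose by 0.63 in RPFs after shEIF2B4 (adjusted p = 0.0861). CDKN1A RPFs were already lower in the uninduced lines, by 0.46 (adjusted p = 0.00015) in shEIF2B1 and 0.48 (adjusted p = 0.0618) in shEIF2B4. For CDKN2B RPFs the uninduced shEIF2B1 line was lower by 0.46 (adjusted p = 0.00321), and for NDRG1 RPFs the uninduced shEIF2B4 line by 0.51 (adjusted p = 0.0570). In total RNA none of the 5 was called in either uninduced line. CDKN2B total RNA there was at 0.036 in shEIF2B1 and -0.012 in shEIF2B4. Both shEIF2B4 calls in RPFs were lost when replicate 2, 3 or 4 was left out.

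Among 5 targets of MondoA and MLX, TXNIP, the arrestin-like inhibitor of glucose uptake, rose in RPFs by 1.06 (SE 0.24, adjusted p = 0.00661) and 1.78 (SE 0.24, adjusted p = 0.00047) and in total RNA by 0.93 (adjusted p = 0.0216) and 1.52 (adjusted p = 1.4e-05). Its paralog ARRDC4 rose in RPFs by 0.58 after shEIF2B4 (adjusted p = 0.0629) and in total RNA by 0.64 (adjusted p = 0.0295) and 0.68 (adjusted p = 0.00117). In uninduced shEIF2B1, TXNIP was already higher than in uninduced shCTRL, by 0.55 in RPFs (adjusted p = 0.00045, 54.1% of genes called). In total RNA it was higher by 0.32 (adjusted p = 0.0287, 1.40% called). In uninduced shEIF2B4 the TXNIP differences, 0.16 and 0.19, were not called (adjusted p = 0.437 and 0.220). The knockdown responses of KLF10, HK2 and PFKFB3 were not called in either measure. Over all genes, 27.3% and 2.75% were called in RPFs after shEIF2B1 and shEIF2B4, and 3.47% and 5.40% in total RNA. Without replicate 2, 3 or 4 the RPF calls after shEIF2B4 went from 2 to 1, and without replicate 1, 3 or 4 the total RNA calls after shEIF2B1 from 2 to 0. The plot of list responses shows that calls in RPFs were mostly negative after shEIF2B1 in the MYC-induced genes and positive in the MYC-repressed ones. In both lists most calls between uninduced shEIF2B1 and uninduced shCTRL had the opposite direction, and those libraries also enter the response.

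Patterns across the 24 libraries of a measure were described after each week's mean was removed. The genes most like MYC in RPFs were DNAJA4 (r = 0.862), LETMD1 (r = 0.806) and SLC9A2 (r = 0.779), and in total RNA SMIM10 (r = 0.790), LSM14A (r = 0.780) and AUNIP (r = 0.764). Within the network, MXD4 and MLX ran in opposite directions in RPFs (r = -0.760) and in total RNA (r = -0.787), and MXD4 and MXI1 in the same direction (r = 0.590 and 0.705). MYC and MAX were related at r = 0.237 and 0.0544. These libraries share lines, DOX and normalization.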

How the data were processed

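RPF and total RNA libraries of 24 SW480 lysates (48 in all) were grouped by the labels, and no sample was left out. The authors removed adaptors (cutadapt 1.18 in the submitters' processing notes) and duplicates, aligned reads to GENCODE v38 protein-coding transcripts, kept the most expressed transcript per gene and counted RPFs on the CDS. The authors deposited log2 values (DESeq2 regularized log2), made separately for RPFs and total RNA, without counts, so precision from counting cannot be given. Each table was fitted by limma 3.58.1 under R 4.3.3 (lmFit, eBayes with trend; replicate, shRNA, DOX and their product; 16 libraries for a knockdown, 8 within shCTRL and between uninduced lines, 24 for the difference between knockdowns), two-sided, with Benjamini-Hochberg adjustment over all genes. p-values rest on the spread left in these 4 weeks after week and condition effects were fitted, moderated across genes by eBayes. Replicates were run in separate weeks. After group means were removed, 52 of 60 same-number pairs in RPFs and 37 of 60 in total RNA correlated over 0.1, and replicate 3 joins 2 sequencing runs.

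Members and lists were chosen with earlier results of these data known. All members are named. From other lists up to 3 called genes with the largest RPF response and up to 2 in total RNA are named, with CCND2 RPFs and uncalled MondoA targets added after values were seen. Transcript features are from GENCODE v29 (GRCh38), matched by identifier for 6 of 8 members and 97.0% of RPF genes (31.3% with the same version). Alternatives were no replicate block, no trend, the lowest 25% of genes left out, median centring, all 24 libraries or only the knockdown lines, a threshold of 0.05, no shCTRL correction and each replicate left out. The fits were tested on simulated data.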

Additional observations from a re-analysis of the deposited data

Results flagged for a closer look

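In groups of 4 libraries, 1 library stood apart from the other 3 in 9 of the 96 combinations of member, measure and condition examined (8 genes, 6 conditions, RPFs and total RNA). Chance flags about 1 group in 20. In RPFs, MAX was 7.76 in shCTRL +DOX replicate 1 against 7.65 to 7.66 in the others. MXD3 was 7.19 in shEIF2B4 +DOX replicate 1 against 6.26 to 6.39. MNT was 5.73 in shEIF2B1 -DOX replicate 4 against 6.25 to 6.27. MGA was 7.66 in shCTRL +DOX replicate 4 against 7.17 to 7.25. In total RNA, MXD3 was 5.74 in shCTRL -DOX replicate 3 against 5.35 to 5.36, and 5.12 in shEIF2B1 -DOX replicate 2 against 5.40 to 5.43. MNT was 6.09 in shEIF2B4 -DOX replicate 2 against 5.79 to 5.81. MLX was 9.06 in shCTRL +DOX replicate 2 against 9.24 to 9.27, and MGA was 9.51 in shEIF2B1 -DOX replicate 1 against 9.65 to 9.67.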

How the results depend on the processing

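The depth behind the values is unknown, and no effect of it could be examined. Of 1452 recomputed values of single members, 1368 kept their direction and side of the threshold or were uncalled throughout, 55 lost a call, 27 gained one and 2 reversed. A sign change between uncalled values was not counted as a reversal. The 2 are MLX with no shCTRL correction, -0.37 in RPFs after shEIF2B1 (adjusted p = 0.00412) and -0.25 in total RNA after shEIF2B4 (adjusted p = 0.0547), where the change shared with shCTRL is kept. With no replicate block 0 members were called in every comparison, so the calls depend on the pairing by week.

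In RPFs after shEIF2B1 (2 called), 1 was called with the lowest 25% of genes left out, at 0.05 and with all 24 libraries, and 0 to 2 with a replicate left out. In RPFs after shEIF2B4 (1 called), 0 were called with low genes left out and at 0.05, 2 with no shCTRL correction, and 0 to 1 with a replicate left out. In RPFs of shCTRL (1 called) there were 0 at 0.05 and 0 to 4 with a replicate left out. For uninduced shEIF2B1 RPFs (4 called) there were 2 at 0.05 and with all 24 libraries and 2 to 5 with a replicate left out, and for log2 TE (2 called) 1 with low genes left out and with all 24 libraries and 1 to 3 with a replicate left out. For uninduced shEIF2B4 RPFs (1 called) there were 0 with low genes left out, with centring and at 0.05, 3 with all 24 libraries and 0 to 2 with a replicate left out, and for its log2 TE (0 called) 2 with all 24 libraries and 0 to 2 with a replicate left out. In total RNA after shEIF2B1 (1 called) there were 0 with low genes left out and at 0.05, 2 with no shCTRL correction and 0 with any replicate left out, and after shEIF2B4 (0 called) 5 with no shCTRL correction. In total RNA of shCTRL (1 called) there were 0 with low genes left out, with centring and at 0.05, and 0 to 4 with a replicate left out. Log2 TE after shEIF2B4 (0 called) gave 1 with no shCTRL correction. Leaving out low genes removes MXD4 from both tables, MXD3 and MNT from total RNA and MXI1 and MGA from log2 TE by construction. The causes of the other moves were not tested. The share of all genes called under each alternative was not recorded, so counts of members and list genes under the alternatives have no background beside them.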
